A study of Arabidopsis thaliana with 18 samples.

Results

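miR822-5p, miR822-3p, miR839-5p and miR839-3p are the arms of a pair of Arabidopsis thaliana miRNAs whose hairpins are cut by DICER-LIKE 4 (DCL4) rather than by DCL1. They were picked by name, and no measured value enters the rule. All libraries analysed here came from wild-type plants, so that the dependence on DCL4 is background and was not measured. Of the 4 named members, 3 had a row among the 422 mature miRNAs of the count table. miR839-3p had no row and is not among the 428 mature miRNAs of the annotation used here, so that no value is given for it. Libraries were made from 7-day-old seedlings of the wild-type accession Col-0, with no transgene, in 3 treatments. Seedlings were left untreated (control), put at 37°C for 1 h (heat stress, HS), or put at 37°C for 1 h and then moved to 22°C for 2 h (recovery). For each treatment there were 3 biological replicates of total RNA and 3 of the RNA that came down with an antibody against the endogenous AGO1 protein (AGO1-IP), which makes 18 libraries in 6 groups. Whole seedlings were used, so that fewer cells with a miRNA and less of it in each cell cannot be told apart.

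In plants most miRNAs are cut from a short, imperfect hairpin by DCL1, while DCL4 mainly cuts long double-stranded RNA into phased 21-nt small interfering RNAs, among them the trans-acting siRNAs (tasiRNAs) of the TAS loci. Some evolutionarily young miRNA genes are thought to have arisen by inverted duplication of part of a protein-coding gene, and their long, well-paired hairpins can still be cut by DCL4. The duplex that is released has a guide strand, which stays in an ARGONAUTE protein and pairs with target mRNAs, and a passenger strand, which is mostly discarded. AGO1, the main miRNA effector of Arabidopsis, favours small RNAs that begin with U.

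The sequences shown here are those of the 3 members with a row, read from the RefSeq copy of the genome (build TAIR10.1), with the seed (bases 2 to 8) in capitals. They are printed so that both arms of miR822 can be compared with each other and with the sites given afterwards.
miR822-5p: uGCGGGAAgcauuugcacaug
miR822-3p: uGUGCAAAugcuuucuacagg
miR839-5p: uACCAACCuuucaucguuccc

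All 3 were 21 nt long and began with U. They differed in seed, and no other row of the table shared a seed or a whole sequence with any of them. Each sequence had 1 perfect match in the genome, and the nearest other row of the same length differed at 9 bases for miR822-5p, 9 for miR822-3p and 11 for miR839-5p. A full-length read of these members therefore fits 1 locus, unlike reads of the 121 rows of the table that share their whole sequence with another row. miR822-5p lies at chr5:897287-897307 and miR822-3p at chr5:897067-897087, both on the minus strand in the miRNA gene MIR822 (AT5G03552). AT5G03553, annotated as protein-coding, overlaps both on the plus strand, and whether counting used the strand is not given in the sources used here. miR839-5p lies at chr1:25279138-25279158 on the minus strand in MIR839 (AT1G67481), where AT1G08943, a non-coding transcript of the same strand, overlaps it.

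The MIR822 hairpin was annotated over 337 nt and the MIR839 hairpin over 264 nt, against a median of 144.5 nt over 326 annotated Arabidopsis hairpins. They were the 32nd and the 45th longest. In the folded hairpins, computed with RNAfold, 83.1% of the bases of MIR822 and 87.9% of those of MIR839 were paired, against a median of 73.1%. Only 2 of the 326 hairpins had a higher share of paired bases than MIR839. miR822-5p occupied positions 50 to 70 and miR822-3p positions 270 to 290. In the predicted fold 20 of the 21 bases of miR822-5p were paired, within positions 268 to 288, against positions 270 to 290 for miR822-3p. miR839-5p also occupied positions 50 to 70, and all 21 of its bases were paired, with partners in positions 194 to 215, where no mature miRNA is annotated.

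**Figure D1:**
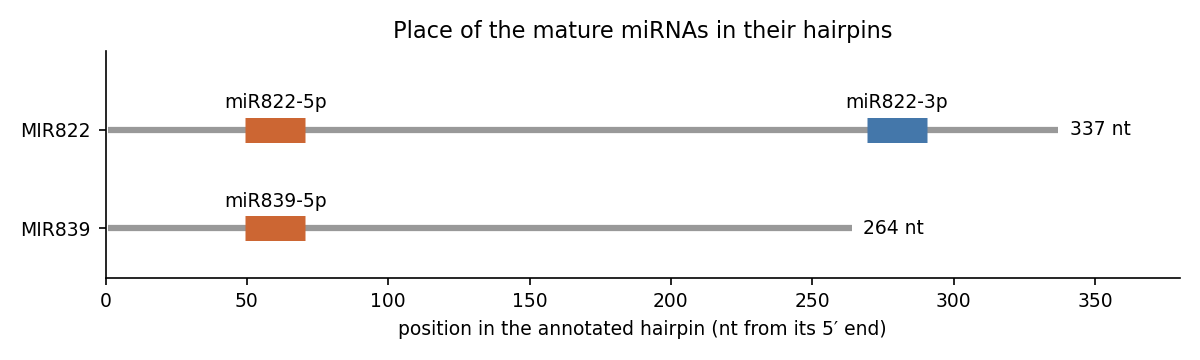
Place of the mature miRNAs in the annotated hairpins of MIR822 (337 nt) and MIR839 (264 nt), with the position in nt from the 5′ end of the hairpin on the x axis. Grey lines are the hairpins, orange blocks the 5p arms at positions 50 to 70 and the blue block miR822-3p at positions 270 to 290.

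A search of annotated transcripts for near-complementary sites related MIR822 to a gene family. With a mismatch counted as 1 and a G:U pair as 0.5, miR822-5p had a site scoring up to 3 in transcripts of 11 genes out of 31464, and all 11 encode cysteine/histidine-rich C1 (DC1) domain proteins, a family of 151 annotated genes (0.48% of the genes searched). The site fell in a coding exon in 10 of the 11. The best score, 0.5, was shared by AT2G13900 (chr2:5834363-5834383, plus strand), AT5G02330 (chr5:487967-487987, minus strand) and AT5G02350 (chr5:495991-496011, minus strand), which hold the same site. AT2G02620 (chr2:718515-718535, plus strand) scored 1.5, and the other 7 genes scored 3. The sites are shown as mRNA, 5′ to 3′, with bases that do not form a Watson-Crick pair with miR822-5p in capitals.
site in AT2G13900, AT5G02330 and AT5G02350: caugugcaaaugcuucUcgca
site in AT2G02620: caugugcaGaugcuCcccgca
site in AT1G66440 and AT1G66450: AaugugcaaauUUuucUcgca

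The site of the 3 best-scoring genes and miR822-3p share a run of 13 bases, ugugcaaaugcuu. Both are near-complements of miR822-5p, the site because it was chosen as such. A shared run was therefore built in and is no separate evidence of a relation to the C1 family. Beyond the mature miRNAs, the whole MIR822 hairpin matched 44 genes by blastn (E-value up to 1e-5), of which 42 were C1-domain genes, with identities of 68.75% to 86.275%. miR839-5p had no site scoring up to 3 in any annotated gene, and the MIR839 hairpin had 1 match, over 2 genes, of which 0 were C1-domain genes. A site is a sequence match and no measurement of cleavage, and neither mRNA levels nor cleavage were analysed here.

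The miRNA reads numbered 321918 to 1059362 in the total RNA libraries and 1374777 to 5745126 in the AGO1-IP libraries. These are sums over the miRNA table and not whole sequencing depth. AGO1-IP recovery replicate 1 stood apart from the other AGO1-IP libraries, with a TMM factor (the scaling factor of edgeR) of 1.07 against 0.46 to 0.65, and changes of the members that use it are given with and without it. Rows that began with U held 86.8 ± 2.35% of all reads of the table in total RNA and 98.5 ± 0.11% in AGO1-IP from control seedlings (mean ± SD, n = 3), and the ranges of the total RNA and AGO1-IP libraries did not overlap in any treatment. The reads are copies made by PCR with no molecular identifiers named in the sources, and counting intervals therefore cover counting error only.

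miR822-5p was the abundant member. In total RNA, replicates 1, 2 and 3 held 5988, 12329 and 17958 reads in control. As CPM (reads divided by the miRNA reads of the library and multiplied by 1000000, with no other factor, the level used from here on), these were 13111, 11638 and 20536. The levels were 11410, 15883 and 19732 after HS and 14449, 17462 and 21333 after recovery. Treatments overlapped, and replicate 3 was the highest library in all 3.

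In AGO1-IP, the levels of miR822-5p were 15913, 14801 and 24230 CPM in control. They were 13753, 17735 and 21713 after HS, and 11205, 10793 and 18234 after recovery. Again the treatments overlapped and replicate 3 was the highest library in each. Among distinct mature sequences, miR822-5p ranked 11th to 18th by reads in the total RNA libraries and 8th to 15th in the AGO1-IP libraries. It made up 1.51 ± 0.48% of the reads of the table in total RNA and 1.83 ± 0.52% in AGO1-IP of control seedlings (SD, n = 3).

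Ordered by mean level, the groups of miR822-5p ran from AGO1-IP control (18315 ± 5153 CPM, mean ± SD) through total RNA recovery (17748 ± 3451), AGO1-IP HS (17734 ± 3980), total RNA HS (15675 ± 4165) and total RNA control (15095 ± 4769) to AGO1-IP recovery (13411 ± 4182). Each group overlapped the next in this order. Replicates differed more than treatments did. In total RNA, the highest treatment mean was 1.18 times the lowest, whereas the mean over libraries numbered 3 was 1.58 times that over libraries numbered 1. In AGO1-IP these ratios were 1.37 and 1.57.

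miR839-5p was far rarer in total RNA. Control libraries held 76, 89 and 39 reads, HS libraries 54, 32 and 18, and recovery libraries 71, 54 and 38. The levels in control were 166, 84.0 and 44.6 CPM. They were 168, 65.0 and 24.4 after HS, and 202, 75.6 and 59.3 after recovery. Replicate 1 was the highest and replicate 3 the lowest library in all 3 treatments, whereas replicate 3 was the highest for miR822-5p. Over treatments the highest mean was 1.31 times the lowest, and over replicate numbers 4.18 times.

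In AGO1-IP, miR839-5p held 3047, 868 and 975 reads in the control libraries, 1379, 1025 and 423 in the HS libraries, and 513, 1271 and 622 in the recovery libraries. The levels in control were 530, 265 and 306 CPM. They were 310, 221 and 308 after HS and 244, 276 and 247 after recovery. Here treatments and replicate numbers differed about equally, with the highest mean 1.44 times the lowest over treatments and 1.42 times over replicate numbers. All 9 AGO1-IP libraries lay above all 9 total RNA libraries, the lowest at 221 and the highest total RNA library at 202. By mean level the order was AGO1-IP control (367 ± 143), AGO1-IP HS (280 ± 50.6) and AGO1-IP recovery (255 ± 17.8), followed by total RNA recovery (112 ± 78.1), control (98.3 ± 62.2) and HS (85.7 ± 73.9). Only AGO1-IP recovery and total RNA recovery, neighbours in this order, did not overlap.

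miR822-3p, the strand opposite miR822-5p, was close to the limit of detection. In total RNA the control libraries held 10, 21 and 28 reads of it, the HS libraries 9, 18 and 24, and the recovery libraries 7, 33 and 17. In the deeper AGO1-IP libraries the counts were 13, 11 and 8 for control, 8, 19 and 6 for HS, and 0, 9 and 8 for recovery. Its levels ran from 19.8 to 46.2 CPM in the 9 total RNA libraries and from 0 to 4.36 in the 9 AGO1-IP libraries, with no overlap. By mean level the order was total RNA HS (32.4 ± 4.31), recovery (30.9 ± 13.7) and control (24.6 ± 6.53), then AGO1-IP HS (3.42 ± 1.41), control (2.71 ± 0.58) and recovery (1.71 ± 1.60). Of neighbours in this order, only control total RNA and AGO1-IP HS did not overlap.

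**Figure D2:**
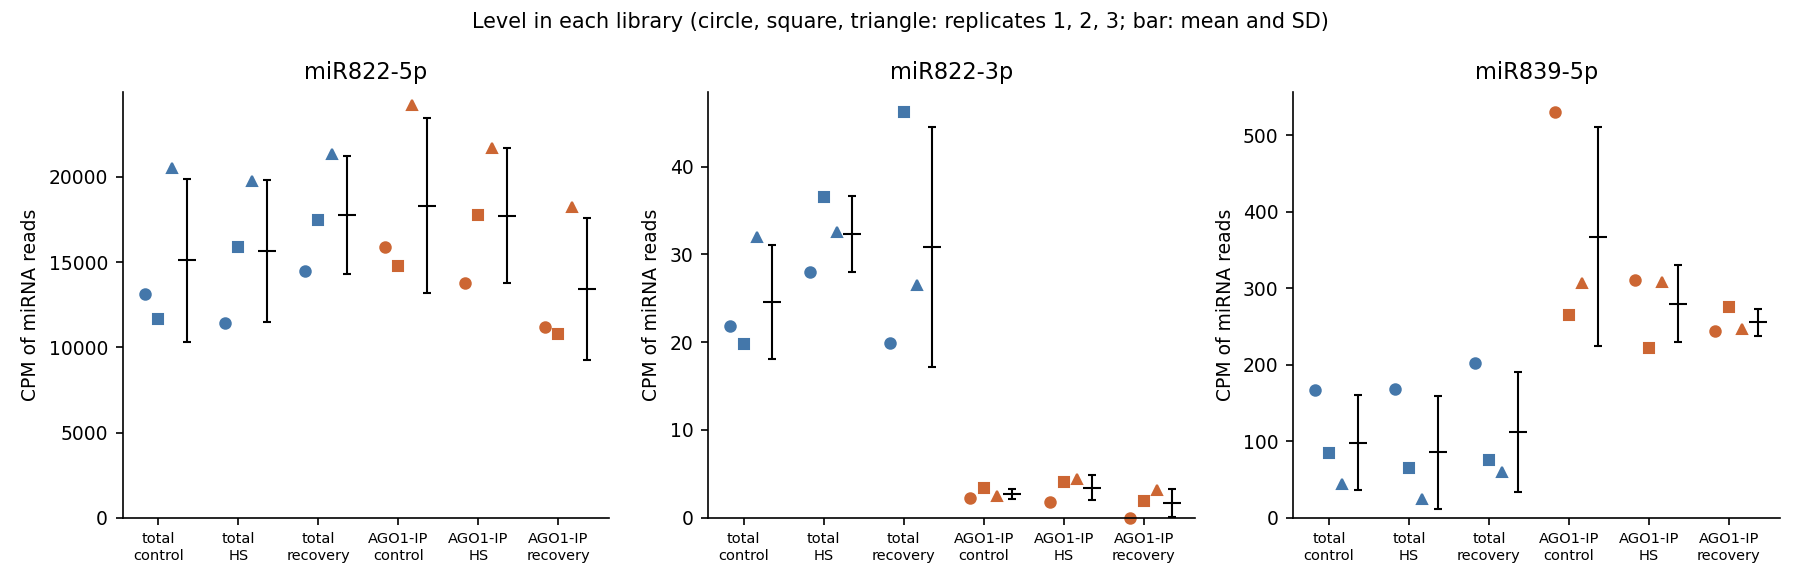
Level of miR822-5p, miR822-3p and miR839-5p in each of the 18 libraries, in CPM of miRNA reads on axes that start at 0. Blue is total RNA and orange AGO1-IP, and bars are the mean and SD of 3 libraries. miR839-5p lies between 24.4 and 202 in total RNA and between 221 and 530 in AGO1-IP, miR822-3p falls to at most 4.36 in AGO1-IP, and miR822-5p overlaps between all groups.

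Heat and recovery in total RNA were compared to ask whether 1 h at 37°C or the return to 22°C altered the amount of these miRNAs. No member passed the test. miR822-5p differed from control by 0.08 ± 0.32 (log2 fold change ± SE, here and below) after HS, with a 95% interval from -0.62 to 0.78 (adjusted p = 0.926, edgeR quasi-likelihood F-test, Benjamini-Hochberg adjustment over all miRNAs tested). It differed from control by 0.18 ± 0.32 after recovery (interval -0.52 to 0.89) and by 0.11 ± 0.32 between recovery and HS. An increase of miR822-5p by more than 0.78 after HS or 0.89 after recovery on the log2 scale lay outside these intervals. They come from the fit without a replicate block. The intervals of miR839-5p were wider, from -1.72 to 1.33 after HS (-0.20 ± 0.69) and from -1.37 to 1.65 after recovery (0.14 ± 0.68). miR822-3p differed by 0.41 ± 0.50 after HS and 0.30 ± 0.50 after recovery.

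No other miRNA passed in total RNA by this test. Of 229 miRNAs tested, 0% passed for HS against control, 0% for recovery against control and 0% for recovery against HS by edgeR, with 25, 4 and 7 at an unadjusted p under 0.05 and 1, 0 and 0 called by DESeq2. With the replicate number as a block, 23 rows (10 higher, 13 lower), 0 and 0 passed by edgeR in the same order. No member was among the 23. The 5 guides against the silencing machinery (miR162a-3p and miR162b-3p, which target DCL1, miR168a-5p and miR168b-5p, which target AGO1, and miR403-3p, which targets AGO2) had 0 of 5 called in each of these comparisons without the block. Of 95 rows of other young miRNAs (taken by number, miR771 to miR870 without miR827 and miR828), 42 were tested and 0 called without the block.

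In AGO1-IP the comparison asked whether the amount held by AGO1 altered. No member passed there either. miR822-5p differed by 0.00 ± 0.36 after HS (interval -0.77 to 0.78), by -0.52 ± 0.36 after recovery against control (interval -1.30 to 0.26) and by -0.52 ± 0.36 between recovery and HS. miR839-5p differed by -0.31 ± 0.32 after HS and by -0.59 ± 0.33 after recovery against control (unadjusted p = 0.0895, adjusted p = 0.906, edgeR), and by -0.28 ± 0.33 between recovery and HS. miR822-3p differed by 0.34 ± 0.79 after HS, -0.64 ± 0.83 after recovery and -0.98 ± 0.83 between recovery and HS. The differences after recovery were smaller without AGO1-IP recovery replicate 1. Without it, recovery against control was -0.16 for miR822-5p, -0.25 for miR839-5p and 0.09 for miR822-3p, of which that library held no read. Recovery against HS was -0.26 for miR822-5p, -0.027 for miR839-5p and -0.35 for miR822-3p without it. Of 215 miRNAs tested, 1.86% passed for HS against control (4 rows, all lower). For recovery against control and recovery against HS, 0.465% passed in each (1 row). With replicate numbers as a block, 4 rows passed for recovery against HS, where the numbers pair the libraries, and no member was among the calls. The median of all miRNAs was -0.20 for recovery against control in AGO1-IP and moved between -0.20 and 0.01 over the scalings tried. Without AGO1-IP recovery replicate 1 it was 0.02.

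**Figure D3:**
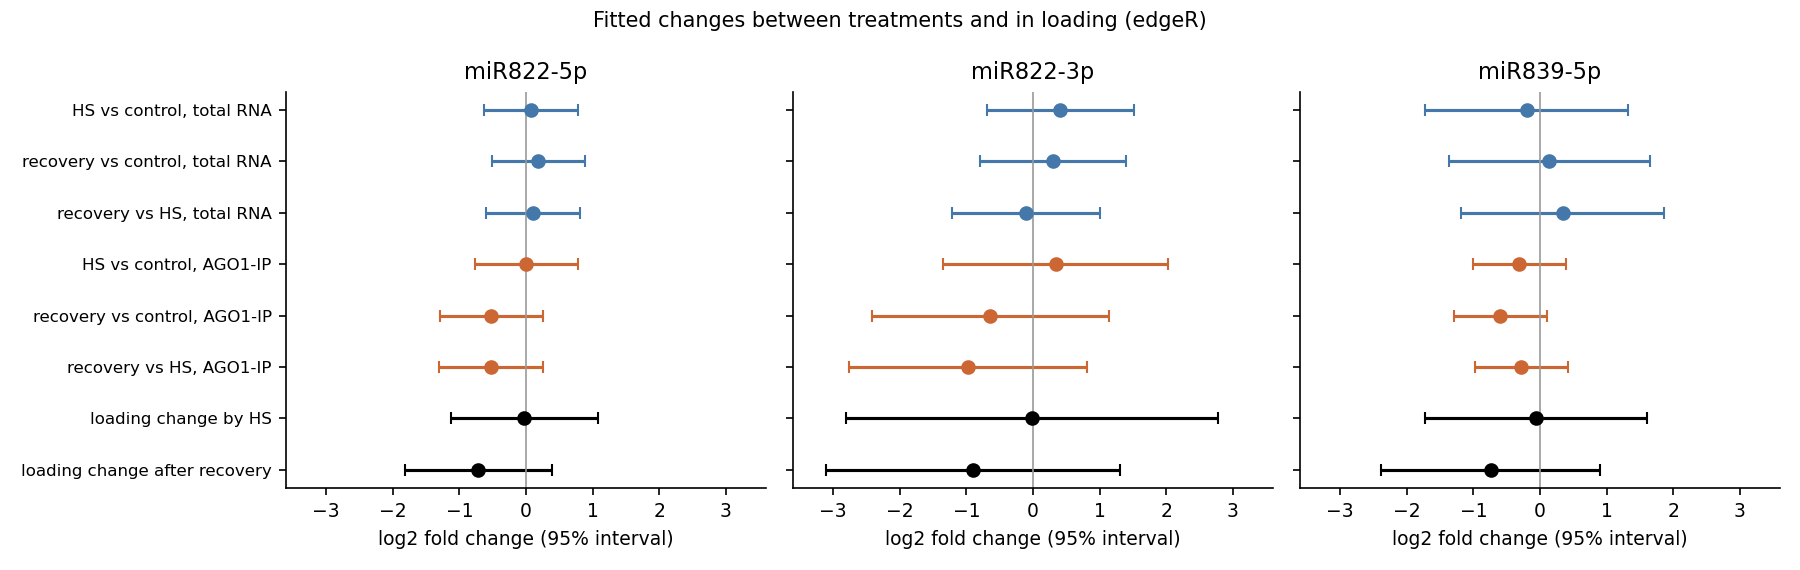
Log2 fold changes of the 3 members between treatments in total RNA (blue), between treatments in AGO1-IP (orange) and in loading (black), from edgeR, with points for the estimate and bars for its 95% interval. Every interval crosses 0. Those of miR822-5p in total RNA stay within -0.62 and 0.89.

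AGO1-IP was compared with total RNA of the same treatment to ask how far each strand was over- or under-represented in AGO1. In control seedlings miR839-5p was 10.9-fold higher in AGO1-IP (3.44 ± 0.61, adjusted p = 5.42e-05, edgeR) and ranked 7th of 269 miRNAs from the highest. Its rank was 18th after HS and 26th after recovery. miR822-5p was 3.31-fold higher (1.73 ± 0.39, adjusted p = 6.27e-04). miR822-3p differed the other way (-1.70 ± 0.75) and did not pass (adjusted p = 0.0514). The same order held after HS, with 3.38 ± 0.62 for miR839-5p (adjusted p = 6.51e-05), 1.70 ± 0.39 for miR822-5p (adjusted p = 6.66e-04) and -1.72 ± 0.76 for miR822-3p (adjusted p = 0.0505). With the replicate number as a block, miR822-3p passed and was lower in AGO1-IP by edgeR, at -1.65 ± 0.65 in control (adjusted p = 0.0288) and -1.73 ± 0.66 after HS (adjusted p = 0.0245). This block gives each number 1 effect, shared by all treatments and both kinds of library. It does not pair total RNA with AGO1-IP within a treatment, and such a paired test was not run. miR822-3p also passed in both with DESeq2, RLE factors and no factors. Those settings lowered the median of all miRNAs too, in control to -0.70, -0.70 and -1.39.

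After recovery all 3 members passed by edgeR. miR839-5p was higher by 2.70 ± 0.60 (adjusted p = 5.59e-04) and miR822-5p by 1.01 ± 0.38 (adjusted p = 0.0262), while miR822-3p was lower (-2.60 ± 0.79, adjusted p = 0.00788). The call of miR822-5p was lost with DESeq2 (0.35, adjusted p = 0.391), with RLE factors (0.35, adjusted p = 0.385), over rows with a mean of at least 50 counts (0.91, adjusted p = 0.0744) and with only the 6 libraries compared (0.99, adjusted p = 0.111). It was also lost without AGO1-IP recovery replicate 2 or 3. It was 1.32 (adjusted p = 0.00252) without AGO1-IP recovery replicate 1, 0.95 (adjusted p = 0.0623) without replicate 2 and 0.62 (adjusted p = 0.196) without replicate 3, all by edgeR. For miR839-5p it was 2.97 without AGO1-IP recovery replicate 1, and for miR822-3p -2.01. Calls were common in these comparisons, with 65.4% of 269 miRNAs in control (93 higher, 83 lower), 66.5% after HS (80 higher, 99 lower) and 63.9% after recovery (85 higher, 87 lower).

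The size of these differences depended on how the libraries were scaled. The median log2 difference of all miRNAs in control moved from 0.09 with TMM factors to -0.70 with RLE factors and -1.39 with no factors. The split of calls moved with it, from 93 higher and 83 lower to 54 and 117 with RLE and to 31 and 130 with no factors. The splits with no factors were 44 and 147 after HS and 29 and 143 after recovery. With no factors miR822-5p differed by 0.28 (adjusted p = 0.498), 0.18 (adjusted p = 0.639) and -0.40 (adjusted p = 0.309) in control, HS and recovery by edgeR, a reversal after recovery. miR839-5p was 1.92 (adjusted p = 0.00651) and 1.74 (adjusted p = 0.0108) in control and HS, and at 1.21 it no longer passed after recovery (adjusted p = 0.0679). A scaling factor shifts all rows and their median by nearly the same amount, so that distances from the median are almost fixed by construction and are given as a description only. Over TMM with and without TAS reads, RLE, no factors and DESeq2, miR839-5p lay 3.31 to 3.35 above the median in control, 3.43 to 3.56 above it after HS and 2.63 to 2.86 above it after recovery. miR822-5p lay 1.64 to 1.69, 1.78 to 1.98 and 0.99 to 1.17 above it. miR822-3p lay below it, at -1.81 to -1.77 in control, -1.60 to -1.47 after HS and -2.74 to -2.43 after recovery.

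**Figure D4:**
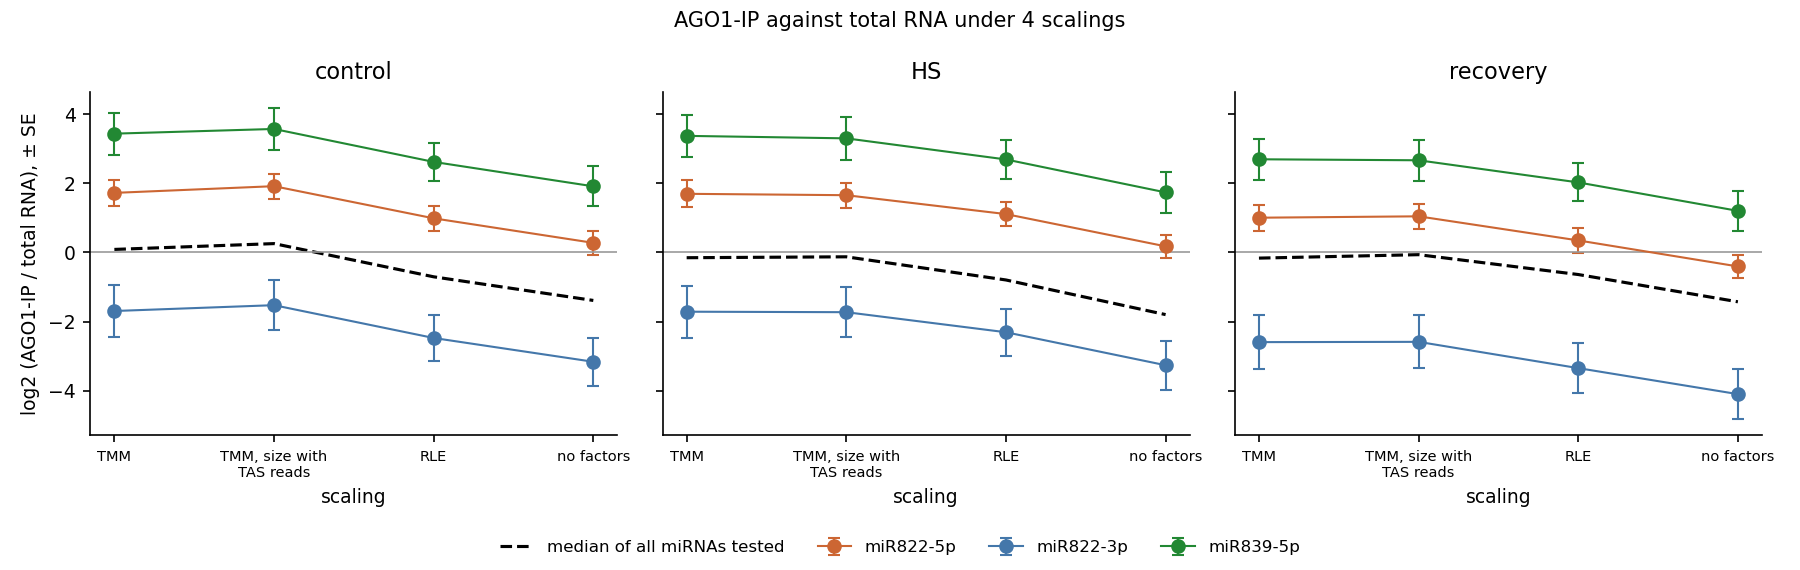
Log2 difference between AGO1-IP and total RNA (± SE, edgeR) for the 3 members under 4 scalings in control, HS and recovery, with the median of all miRNAs tested as a dashed line. Members and median fall together from TMM to no factors, in control from 0.09 to -1.39 for the median, so that miR822-5p ends near 0 while its distance from the median stays between 1.64 and 1.69.

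Other small RNAs give the scale of these differences. With TMM factors, all 5 guides against the silencing machinery were higher in AGO1-IP in each treatment, with medians of 2.58, 2.77 and 1.97 in control, HS and recovery. In control miR162a-3p was higher by 3.28 ± 0.40, miR162b-3p by 3.33 ± 0.40, miR168a-5p by 1.67 ± 0.26, miR168b-5p by 1.67 ± 0.26 and miR403-3p by 2.58 ± 0.49. The a and b copies of miR162 and of miR168 have the same mature sequence, so that their reads cannot be assigned to 1 copy. With no factors 3 of the 5 guides passed in control, 3 after HS and 2 after recovery, all higher, and miR168a-5p (0.18 ± 0.33) and miR168b-5p (0.18 ± 0.33) did not pass in control. Of 53 tested rows of other young miRNAs, 17 were higher and 10 lower in control (median 0.92), 18 and 12 after HS (median 0.79), and 15 and 10 after recovery (median 0.54). With no factors this turned to 3 higher and 16 lower in control (median -0.55), 7 and 21 after HS (median -0.74), and 4 and 18 after recovery (median -0.92). Among all 112 tested rows of 21 nt that begin with U, which include all 3 members, 53 were higher and 3 lower in control, with a median of 1.12, and with no factors 18 were higher and 28 lower, with a median of -0.37.

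The arms of miR822 come from 1 precursor and were counted in 1 library, so that their ratio does not depend on scaling. miR822-3p made up 0.164 ± 0.0075% of the reads of both arms in control total RNA, with 0.167, 0.170 and 0.156% in replicates 1, 2 and 3. In control AGO1-IP it made up 0.0158 ± 0.0063%, with 0.0142, 0.0227 and 0.0104%. The shares for HS were 0.213 ± 0.043% in total RNA and 0.0188 ± 0.0052% in AGO1-IP, and those for recovery 0.175 ± 0.077% and 0.0118 ± 0.0103%. In each treatment all 3 AGO1-IP libraries lay below all 3 total RNA libraries (exact two-sided permutation p = 0.1, adjusted p = 0.36 over 18 tests of this share and of the ratio to TAS reads described with the TAS loci), and 0.1 is the smallest p that 3 against 3 libraries can give. In AGO1-IP recovery replicate 1, 0 of 23581 reads allow a share of up to 0.0127%, and replicates 2 and 3 held 0.0181 and 0.0174%. Treatments did not separate in this share, with exact permutation p of 0.3 to 1.0.

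The arms of miR822 were more unequal than those of nearly all other pairs. Of 52 pairs of arms with at least 1000 reads in total RNA, miR822 had the lowest share for its minor arm, 0.178% of the reads summed over 9 libraries, against a median of 7.03%. In AGO1-IP 1 of 50 pairs had a lower share than the 0.0161% of miR822, against a median of 0.830%. That pair had 0.0023%, and the next pairs above miR822 were close to it, at 0.0163% and 0.0166%. The share of miR822 in AGO1-IP rests on 82 reads of miR822-3p. The pairs are not all distinct, since copies such as miR168a and miR168b share 1 guide sequence and are counted as separate pairs. The median pair was also more unequal in AGO1-IP than in total RNA.

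**Figure D5:**
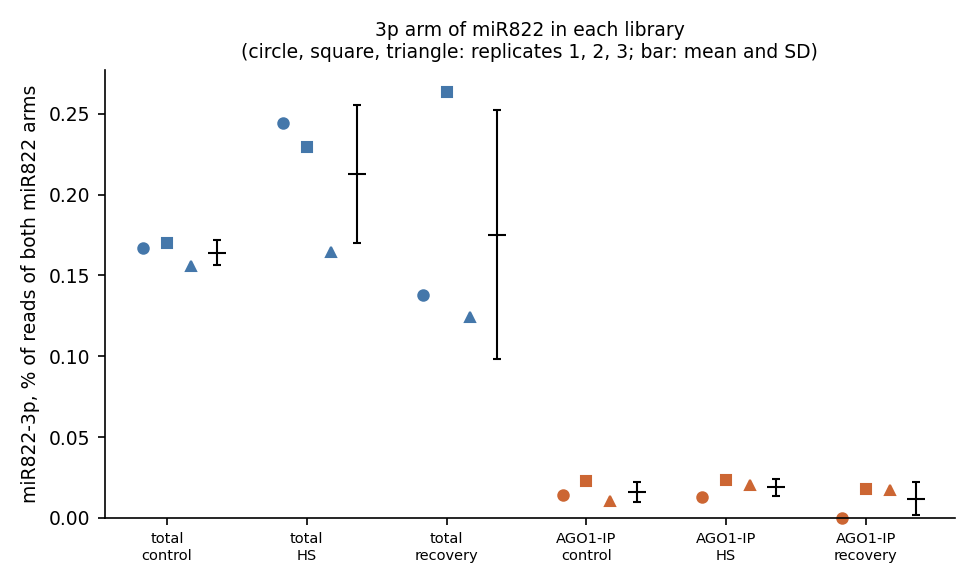
Share of miR822-3p in the reads of both miR822 arms, in percent on an axis that starts at 0, for each of the 18 libraries, with the mean and SD of 3 libraries. Blue is total RNA and orange AGO1-IP. AGO1-IP libraries reach at most 0.0231%, and total RNA libraries lie at or above 0.124%.

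A loading change is the difference between the effect of a treatment in AGO1-IP and its effect in total RNA. No member passed this interaction test. By HS it was -0.03 ± 0.53 for miR822-5p, -0.06 ± 0.80 for miR839-5p and -0.02 ± 1.35 for miR822-3p. After recovery it was -0.72 ± 0.53, -0.74 ± 0.80 and -0.90 ± 1.07 in the same order, and -0.40, -0.48 and -0.31 without AGO1-IP recovery replicate 1. The 95% intervals were wide, from -1.13 to 1.08 for miR822-5p by HS and from -1.82 to 0.39 after recovery. Of 269 miRNAs, 0.372% (1 row) passed by HS. After recovery 0% passed by edgeR, with 6 at an unadjusted p under 0.05 and 0 by DESeq2.

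The TAS loci supply other small RNAs known as DCL4 products, though not necessarily all that were counted. Their table held 6242 tasiRNA positions with 26411 to 383351 reads a library. miR822-5p yielded 0.139 ± 0.014 reads per TAS read in control total RNA, 0.117 ± 0.029 after HS and 0.153 ± 0.044 after recovery (SD, n = 3). In AGO1-IP it yielded 0.313 ± 0.173, 0.252 ± 0.052 and 0.242 ± 0.072. AGO1-IP lay above total RNA in every library in control and HS (exact permutation p = 0.1 in each, the smallest possible), and the ranges overlapped after recovery (exact permutation p = 0.2). The ratio did not separate the treatments within either kind of library, with exact permutation p of 0.3 to 1.0. The ratio also depends on how evenly the TAS loci entered AGO1-IP, and they did so unevenly.

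Each TAS locus was tested beside the miRNAs with the same TMM scaling by edgeR. TAS2 was higher in control AGO1-IP by 1.88 ± 0.41, TAS3a by 1.29 ± 0.44 and TAS4 by 1.30 ± 0.43, all past the adjusted threshold, while TAS3b was lower (-1.51 ± 0.53). TAS1a (0.22 ± 0.39), TAS1b (-0.22 ± 0.35) and TAS1c (0.44 ± 0.36) did not pass. The calls differed in the other treatments. After HS, TAS2 (1.66 ± 0.40) and TAS3a (1.05 ± 0.44) were higher, and TAS1b (-0.90 ± 0.35) and TAS3b (-3.20 ± 0.56) lower. After recovery, TAS2 (1.21 ± 0.40) was higher, and TAS1b (-0.91 ± 0.35) and TAS3b (-1.585 ± 0.53) lower. The remaining loci did not pass there. These directions also moved with the scaling. With no factors TAS2 (0.28 ± 0.31), TAS3a (-0.32 ± 0.38) and TAS4 (-0.32 ± 0.46) did not pass in control, and TAS1a (-1.37 ± 0.33), TAS1b (-1.83 ± 0.32), TAS1c (-1.15 ± 0.30) and TAS3b (-3.16 ± 0.61) were lower by edgeR. No TAS locus passed between treatments. The lowest p in total RNA after HS belonged to TAS3b (1.57 ± 0.61) and TAS1b (0.65 ± 0.27), each with an adjusted p of 0.326 by edgeR.

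The courses of miR822-5p and miR839-5p over the libraries were unlike each other. Within a library, miR839-5p had 12.7, 7.22 and 2.17 reads per 1000 reads of miR822-5p in replicates 1, 2 and 3 of control total RNA. It had 14.7, 4.09 and 1.24 after HS, and 14.0, 4.33 and 2.78 after recovery, highest in replicate 1 and lowest in replicate 3 each time. In AGO1-IP the values were 33.3, 17.9 and 12.6 for control, 22.6, 12.5 and 14.2 for HS, and 21.8, 25.6 and 13.5 for recovery. No batch is given in the labels, and the part of the replicate numbers in this pattern was not tested.

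As a measure of likeness, each row's log2(CPM + 1) was centred within total RNA and within AGO1-IP, and the root mean square difference was taken over the 18 libraries. Over rows averaging 100 counts or more, the nearest to miR822-5p were miR396b-3p (0.24), miR447b (0.28) and miR167c-5p (0.31), against a median of 0.58. The nearest to miR839-5p were miR399c-3p (0.41), miR399b (0.44) and miR162a-3p (0.49), against a median of 0.84. miR839-5p was 134th in likeness to miR822-5p (0.90). These distances describe 18 libraries that share depth and replicate structure and carry no test.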

How the data were processed

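Small RNA of total RNA and AGO1-IP was sequenced, per the labels, after library preparation with RealSeq v2. The submitters' processing notes name Cutadapt 2.9, and Bowtie2 was used for mapping to TAIR10. The authors deposited raw read counts per mature miRNA and per tasiRNA position, without normalisation. How reads with several matches were counted is not given in the sources used here. All columns matched a library by name, with 0 left unused.

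Counts were tested with edgeR 4.0.16 in R 4.3.3 (glmQLFit with robust, glmQLFTest, TMM, filterByExpr, Benjamini-Hochberg, called at an adjusted p of 0.05) over the 9 libraries of a kind, or all 18 for comparisons between kinds. All 3 members with a row passed the filter in every fit with these settings, and miR822-3p did not pass it in some alternatives. Scripts were tested on simulated data. Shares were compared by exact permutation tests. Hairpins were folded with RNAfold 2.7.2 and compared with the genome by blastn 2.17.0. DESeq2 1.42.0, other scalings, filters, summed identical sequences, a replicate block and left-out libraries were the alternatives. The members, though picked by name, and the lists were chosen with earlier results of these data known. Named were the members, the 3 rows nearest in pattern to each guide, the TAS loci and the 5 silencing guides.

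The labels give biological replicates 1 to 3 in each group. Deviations of same-numbered libraries correlated at 0.23 to 0.772 between total RNA control and recovery, 0.46 to 0.787 between total RNA HS and recovery, and 0.413 to 0.588 between AGO1-IP HS and recovery, so that there the numbers pair the libraries. Changes and intervals of the members in these comparisons are nevertheless given from the fit without the replicate block. With the block no member passed in them either. In the other comparisons at least 1 correlation was under 0.1. Between total RNA control and HS this was replicate 2 (0.0515), against 0.562 and 0.769 for replicates 1 and 3. The study states that total RNA and AGO1-IP libraries were made from the same biological replicates. Correlations between same-numbered total RNA and AGO1-IP libraries of a treatment ran from -0.00202 to 0.22. The replicate block gives each number 1 effect over all libraries of a fit and does not pair libraries within a treatment.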

Additional observations from a re-analysis of the deposited data

How the results depend on the processing

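Of 579 recomputed changes and shares, 509 were counted as unchanged, 48 reversed, 13 passed anew and 9 no longer passed. A change counted as unchanged if it kept its direction and its side of the threshold. A share, or ratio to TAS reads, has no threshold and counted as unchanged if it stayed within the SD of its group. Leaving out 1 of 3 libraries cannot move a mean that far, so those recomputed shares and ratios say nothing about stability. No member passed a comparison between treatments or a loading change under any alternative run. All values here are log2 fold changes, and the cause of each shift was not tested except where scaling moved the median of all miRNAs. In AGO1-IP against total RNA, miR822-5p was 0.28 in control, 0.18 in HS and -0.40 in recovery with no factors. In recovery it was 0.35 with DESeq2, 0.35 with RLE factors, 0.91 over rows with a mean of at least 50 counts and 0.99 with only the 6 libraries compared, none of which passed, and miR839-5p was 1.21 with no factors (edgeR adjusted p = 0.0679). miR822-3p passed in control at -2.51 with DESeq2, -2.48 with RLE, -3.17 with no factors, -1.65 with identical sequences summed and -1.51 with 6 libraries. In HS it passed at -2.34, -2.31, -3.27, -1.88 and -1.78 in the same order, and at -1.73 with TAS reads in the library size. It was left out at a mean of 50 counts.

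With a replicate block miR822-3p passed at -1.65 in control and -1.73 in HS, and the loading change by HS became 0.0027 for miR822-5p and 0.076 for miR839-5p. No other call of a member changed with the block. The block raised the miRNAs called from 0 to 23 for HS against control in total RNA, from 4 to 8 in AGO1-IP, and from 1 to 7 for recovery against control in AGO1-IP. By the criterion used, all correlations over 0.1, replicate numbers did not pair the libraries of these comparisons (lowest correlations 0.0515, 0.0903 and 0.0572). For HS against control in total RNA that rested on replicate 2 alone, as replicates 1 and 3 correlated at 0.562 and 0.769. Control and HS each met the criterion against recovery there, so whether the numbers pair control with HS is not settled.

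Small values near 0 changed sign. For HS against control in AGO1-IP miR822-5p was -0.047 with no factors, -0.036 with TAS reads in the library size and -0.0016 with identical sequences summed. The loading change by HS was 0.18 and 0.17 for miR822-3p, 0.12 and 0.12 for miR822-5p and 0.070 and 0.071 for miR839-5p with DESeq2 and RLE, and 0.16 and 0.24 for miR822-5p and miR839-5p at a mean of 50 counts.

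Leaving out 1 library at a time gave, in total RNA after HS, -0.19 to 0.36 for miR822-5p and -1.15 to 0.21 for miR839-5p. After recovery it gave -0.15 to 0.56 for miR822-3p, -0.020 to 0.49 for miR822-5p and -0.55 to 0.50 for miR839-5p, and between recovery and HS -0.55 to 0.14, -0.11 to 0.36 and -0.28 to 1.19. In AGO1-IP it gave -0.11 to 0.33 for miR822-5p and -0.37 to 0.026 for miR839-5p after HS, -1.08 to 0.086 for miR822-3p after recovery, and -0.29 to 0.050 for miR839-5p between recovery and HS. AGO1-IP against total RNA in recovery ran from 0.62 to 1.32 for miR822-5p. The loading change by HS ran from -0.48 to 0.29 for miR822-3p, -0.59 to 0.16 for miR822-5p and -0.76 to 0.57 for miR839-5p, and after recovery from -1.44 to 0.071 for miR839-5p.

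Counts of called miRNAs also moved. For HS against control in total RNA DESeq2, RLE, no factors, no filter, a mean of 50 counts and summed sequences each gave 1 in place of 0. In AGO1-IP recovery against control went from 1 to at most 6 without the block (no filter) and recovery against HS from 1 to 8 (without AGO1-IP recovery replicate 2). AGO1-IP against total RNA fell from 176, 179 and 172 to 95, 112 and 100 at a mean of 50 counts, where fewer rows were tested. The loading change by HS ran from 0 to 2. Depth limits miR822-3p most, with 0 to 19 reads per AGO1-IP library, and miR839-5p in total RNA, with 18 to 89.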
